A study of Mus musculus with 12 samples.

Results

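The data described here are the RNA levels of 10 integrin genes used by leukocytes, and how much of each RNA was recovered with the m6A reader YTHDF2, in myeloid cells of irradiated and unirradiated mouse tumors. The genes were Itgam, Itgax, Itgal and Itgb2, which encode the beta2 integrins, Itga4, Itgb1 and Itgb7, which encode the alpha4 integrins, Itgav and Itgb5, which encode an alphav integrin, and Itga6, whose product pairs with beta1 on leukocytes. They were matched by gene symbol, each to 1 identifier, and make up 10 of the 54446 genes counted.

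Integrins are cell-surface receptors built from 1 alpha and 1 beta chain, and a chain reaches the surface only when it finds a partner. On myeloid cells the beta2 integrins bind ICAMs and complement fragments and support arrest on the vessel wall and phagocytosis, the alpha4 integrins bind VCAM-1, fibronectin or MAdCAM-1, and the alphav and alpha6 integrins bind matrix proteins such as vitronectin and laminin. Itgam encodes CD11b, the surface protein by which the cells of this study were selected. YTHDF2 binds RNAs that carry m6A and is known to promote their decay.

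CD11b+ myeloid cells were taken from MC38 tumors, grown from a mouse colon carcinoma line in WT adult mice, which in this study carried floxed Ythdf2 without Cre. Ctrl mice were not irradiated, and IR mice received a single local dose of 20 Gy, with the cells collected 3 days later. From each of 3 pools of mice per condition, an Input library of the lysate RNA and an IP library of the RNA recovered with an anti-YTHDF2 antibody were sequenced, which gives 4 groups (Ctrl Input, IR Input, Ctrl IP and IR IP) of 3 libraries and 12 in all. The cells were enriched with a magnetic selection kit and pooled over mice, and the study calls the pools technical replicates, so the p-values given here measure the spread between these pools and not between single mice.

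The libraries held 34445784 to 40008607 counts on genes in Ctrl Input, 37940948 to 42382532 in IR Input, 28919897 to 33882664 in Ctrl IP and 27852948 to 30244160 in IR IP. The share of reads that fell on no gene was 26.9 to 27.0% in Ctrl Input and 24.6 to 24.8% in IR Input, against 41.8 to 42.7% in Ctrl IP and 49.4 to 54.1% in IR IP. Markers of monocytes and macrophages summed to 3095 to 3402 CPM (counts scaled to a common library size) over the 6 Input libraries and those of neutrophils to 6006 to 9184 CPM, while the summed T cell markers stayed at or under 1.92 CPM, the NK cell markers at or under 0.719 CPM and the markers of tumor epithelial cells at or under 6.77 CPM. In these bulk samples, fewer cells of a type and less RNA per cell cannot be told apart.

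YTHDF2 recognises m6A, which is most often placed in a short consensus of which GGACT is the best-known form, and m6A is frequent near stop codons. The letters GGACT were therefore searched on the sense strand of 1 transcript per gene, taken from the GENCODE M21 annotation of GRCm38 (the same build as mm10). The match nearest the stop codon lay within 200 bases of it in 6 of 10 members, where 36.1% of 21901 coding genes had such a match. For those 6, the match is shown in capitals with 10 bases on each side, 5′ to 3′ along the transcript; all 6 genes lie on the plus strand.
Itgal, chr7:127333604-127333608, with the last base of the match in the stop codon: agagtgacaaGGACTaaggcctagg
Itgb5, chr16:33948746-33948750, with the last base of the match in the stop codon: atggctcagtGGACTgaggctcctg
Itga4, chr2:79325653-79325657, coding sequence 135 bases before the end of the stop codon: cttgctacttGGACTtattgtactt
Itgb2, chr10:77565401-77565405, 3′ UTR 163 bases after it: gggtttccagGGACTtgtcttccga
Itgb1, chr8:128732266-128732270, 3′ UTR 180 bases after it: tccatgccagGGACTgacagaagac
Itgav, chr2:83803426-83803430, 3′ UTR 93 bases after it: tgaaatcccaGGACTgtattgctga

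In Itgam, Itgax, Itgb7 and Itga6 the nearest match lay 802, 421, 207 and 2434 bases before the end of the stop codon, in the coding sequence. The number of matches per transcript ranged from 2 in Itgb1 to 14 in Itgav. Per kb of transcript the members had a median of 1.07 matches, against 1.01 over all coding genes. A match is a run of letters and does not show that the site is methylated or bound. The transcripts of the members were longer than most, with a median of 4178 bases against 2565 over all coding genes.

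Itgam, Itgax and Itgal lie on chromosome 7, at 128062640 to 128118491, 128129547 to 128150657 and 127296260 to 127335138. Itga4 (79255426 to 79333123), Itgav (83724397 to 83806916) and Itga6 (71745616 to 71858416) lie on chromosome 2, and the 4 beta genes lie apart, Itgb2 on chromosome 10, Itgb1 on chromosome 8, Itgb7 on chromosome 15 and Itgb5 on chromosome 16. The position of Itgam bears on its count. A read-through gene model on the same strand, Gm49368, shares 3450 of the 5024 exon bases of Itgam (68.7%), which leaves 1574 bases that belong to Itgam alone. Counters of the kind used here leave a read uncounted when it falls on 2 genes, and Gm49368 itself held 39 to 102 counts per library, so the Itgam count is likely to rest mainly on those 1574 bases and its level per length is given both ways. Of the other members, Itga4 shares 8.04% and Itgav 5.9% of its exon bases with an antisense gene, and the strand option of the counting is not given in the sources used here.

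Itgam was the most abundant of the 10 genes in every group. In Ctrl Input its level was 945, 942 and 943 CPM in the 3 pools, and its partner Itgb2 stood at 638, 595 and 578 CPM. Per kb of exon that only the gene itself uses, Itgam reached 599 ± 0.88 CPM per kb (SD, n = 3), followed by Itgb2 with 198 ± 10, Itgb1, the common beta chain, with 59.0 ± 2.4, and Itgax, which encodes CD11c, with 37.7 ± 1.5. When all exons of Itgam are taken as its length, the order of the first 2 turns, with 188 CPM per kb for Itgam against 198 for Itgb2.

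The other 6 members were far lower on this per-length scale. In Ctrl Input, Itgal, which encodes CD11a of LFA-1, stood at 14.0 ± 0.34 CPM per kb, Itgb7 at 10.9 ± 0.57, Itgb5 at 8.18 ± 0.30 and Itga4, the alpha chain of VLA-4, at 4.82 ± 0.14. Itga6 (2.48 ± 0.092) and Itgav (2.30 ± 0.14) came last, and they were the only neighbours in this order whose pools overlapped. In IR Input the order was the same, but there the pools of Itgal (10.6) and Itgb7 (10.4) overlapped and those of Itga6 and Itgav did not.

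Among the 3 alpha chains that share Itgb2, Itgam took 92.1 ± 0.21% of the summed level per length in Ctrl Input and 95.4 ± 0.035% in IR Input, when only its own exon bases are used. With all of its exon bases these shares were 78.4 ± 0.49% and 86.6 ± 0.092%. Either way the share was higher in all 3 IR pools than in any Ctrl pool, while the share of Itgal fell from 2.15 to 0.926% by the first length and from 5.85 to 2.68% by the second.

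**Figure D1:**
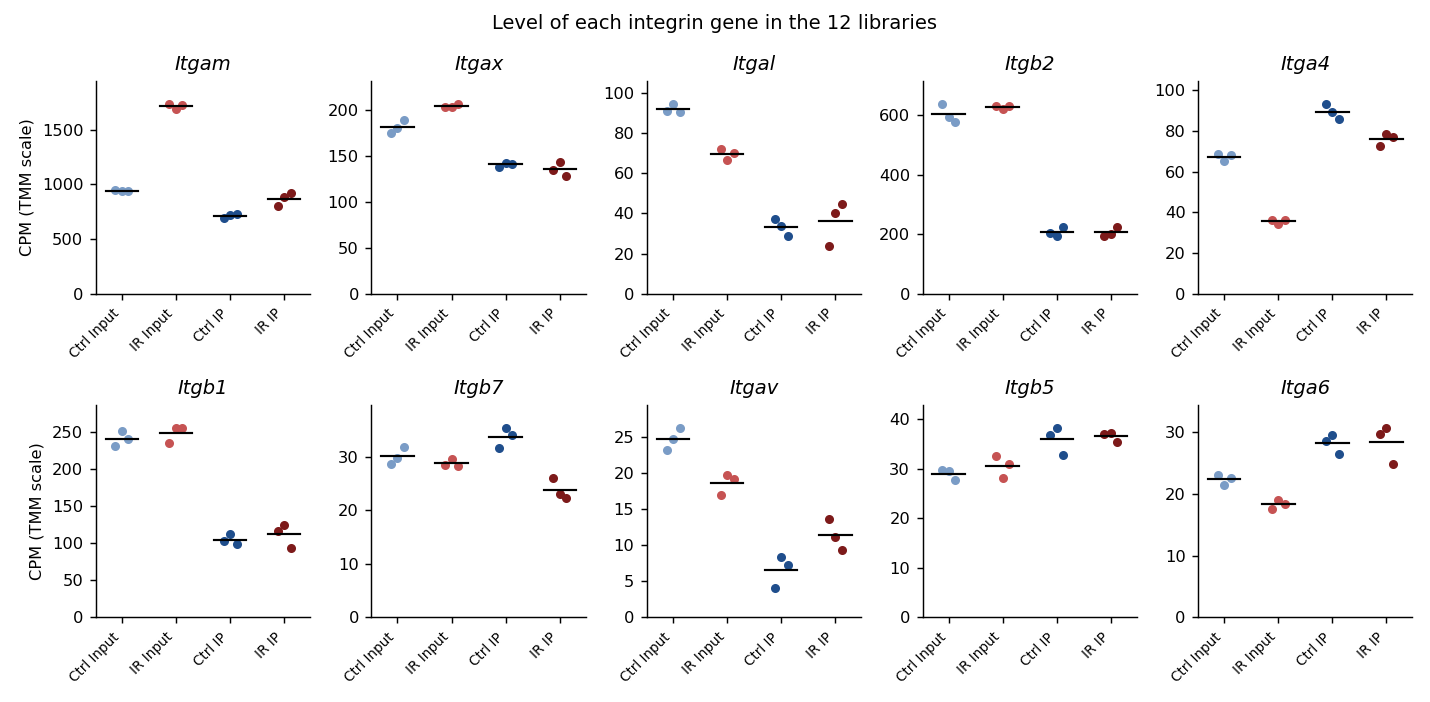
Level of each of the 10 integrin genes in CPM (vertical axis, from 0, scaled to each gene) in the 3 libraries of Ctrl Input, IR Input, Ctrl IP and IR IP; points are libraries and bars are means. Itgam rises from 942 to 945 CPM in Ctrl Input to 1691 to 1736 CPM in IR Input, Itga4 falls from 65.0 to 68.6 to 34.2 to 36.4 CPM, and Itgb2 and Itgb1 differ by fraction rather than by condition.

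The first comparison asked how the RNA levels of these genes differed between the myeloid cells of irradiated and unirradiated tumors, in the Input. Itgam, and by a small margin Itgax, were higher in IR, Itga4, Itgal, Itgav and Itga6 were lower, and none of the 4 beta genes passed the test. In edgeR's quasi-likelihood test, with p-values adjusted over 16914 genes by the Benjamini-Hochberg method, 2 of 10 members were higher in IR, where 21% of all genes tested were, and 4 of 10 were lower, where 23.9% of all genes tested were. The median log2 fold change of the members was -0.09, against 0.01 over all genes tested.

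Itgam was at 1736, 1691 and 1724 CPM in the IR Input pools. All 3 were far above the 942 to 945 CPM of the Ctrl pools, with no overlap. The log2 fold change was 0.79 (SE 0.026, adjusted p = 6.19e-19), a fold of 1.72, and 95.3% of the genes tested had a lower value. Levels are on the common scale of all 12 libraries and fold changes on the scale of the compared libraries. These scales differ enough to turn the direction of small differences. Itgb2, for example, averaged 604 CPM in Ctrl Input and 628 CPM in IR Input, while its fitted log2 fold change was -0.02. Itgb1 (241 and 249 CPM, fitted -0.03) and Itgb5 (29.1 and 30.7 CPM, fitted -0.00) turned likewise, and the calls rest on the fitted values.

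Itgax, the other alpha chain that marks myeloid and dendritic cells, was at 175, 180 and 189 CPM in Ctrl and at 203, 203 and 207 CPM in IR. The pools did not overlap but the difference was small, with a log2 fold change of 0.09 (SE 0.035, adjusted p = 0.0323). This call was lost without Ctrl Input replicate 1, without Ctrl Input replicate 2 and without IR Input replicate 3 (lowest log2 fold change 0.07) and with library sizes alone (0.07). The markers of dendritic cells summed to 224 to 228 CPM in Ctrl Input and 266 to 273 CPM in IR Input. They were split, however, as 2 of the 5 tested were called higher in IR and 2 lower.

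Itga4 showed the largest fall among the members. Its level was 68.6, 65.0 and 68.3 CPM in Ctrl Input and 36.4, 34.2 and 36.3 CPM in IR Input, with every IR pool far below every Ctrl pool. The log2 fold change was -0.997 (SE 0.051, adjusted p = 8.69e-15), and 4.8% of the genes tested had a lower value. Its VCAM-1-binding receptor needs Itgb1, which stood at 231, 250 and 241 CPM in Ctrl and 235, 255 and 256 CPM in IR, with overlapping pools and a log2 fold change of -0.03 (SE 0.037, adjusted p = 0.521). Its gut-homing partner Itgb7 stood at 28.7, 29.9 and 31.9 CPM in Ctrl and 28.5, 29.6 and 28.3 CPM in IR, and its log2 fold change of -0.15 (SE 0.064) missed the threshold (adjusted p = 0.0683). It passed without Ctrl Input replicate 1 (adjusted p = 0.0419) and with library sizes alone (adjusted p = 0.0436).

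Itgal was at 91.0, 94.5 and 90.5 CPM in Ctrl Input and at 72.2, 66.7 and 70.1 CPM in IR Input. The pools did not overlap, and the log2 fold change was -0.48 (SE 0.043, adjusted p = 7e-10). Its partner Itgb2 was at 632, 620 and 632 CPM in IR Input, within the range of the Ctrl pools, with a log2 fold change of -0.02 (SE 0.034, adjusted p = 0.641). LFA-1 is also the chief integrin of lymphocytes. The 6 T cell markers, of which Trac was at 0 in all Ctrl Input libraries, summed to 1.63 to 1.92 CPM in Ctrl Input and 0.663 to 1.56 CPM in IR Input. The sums of the other lymphocyte lists were higher in IR Input, at 15.397 to 16.995 CPM in Ctrl and 26.7 to 31.0 CPM in IR for the B cell markers and at 0.0857 to 0.462 CPM and 0.497 to 0.719 CPM for the NK cell markers. Of the 4 B cell markers, all tested, 2 were called higher in IR and 1 lower. Only 1 of the 5 NK cell markers had enough counts to be tested, and it was called higher. Of the 2 T cell markers tested, 0 were higher and 1 lower. The part of these cells in the values of Itgal and Itga4 was not tested.

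Itgav, whose product binds vitronectin and osteopontin, was at 23.2, 24.7 and 26.3 CPM in Ctrl Input and at 16.9, 19.7 and 19.1 CPM in IR Input. The pools did not overlap, and the log2 fold change was -0.49 (SE 0.079, adjusted p = 1.02e-05); with all 12 libraries in 1 fit the call was lost (adjusted p = 0.107). Its partner Itgb5 stood at 27.8 to 29.8 CPM in Ctrl and 28.2 to 32.7 CPM in IR, with a log2 fold change of -0.00 (SE 0.068, adjusted p = 0.992). Itga6, the laminin receptor chain, was at 23.0, 21.4 and 22.6 CPM in Ctrl and 17.65, 18.97 and 18.44 CPM in IR, with a log2 fold change of -0.36 (SE 0.076, adjusted p = 0.000292). Every IR pool was below every Ctrl pool for Itga6.

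The summed levels of cell type markers differed between the conditions as well. The 7 neutrophil markers summed to 6006 to 6723 CPM in Ctrl Input and 8474 to 9184 CPM in IR Input, and 5 of the 7 were called higher and 0 lower. The 8 markers of monocytes and macrophages summed to 3095 to 3221 CPM and 3329 to 3402 CPM, with 5 called higher and 2 lower. The 4 platelet markers summed to 27.6 to 31.4 CPM and 36.8 to 40.1 CPM, the 4 B cell markers to 15.397 to 16.995 CPM and 26.7 to 31.0 CPM, and the 4 endothelial markers to 25.7 to 27.4 CPM and 22.3 to 24.1 CPM. Of the platelet markers 1 of 4 was called higher and 0 lower, and of the B cell markers 2 of 4 higher and 1 lower. Of the 3 endothelial markers tested, 1 was called higher and 1 lower. The 4 fibroblast markers summed to 6.03 to 6.78 CPM and 7.79 to 12.2 CPM, and the only 1 tested was called higher. Over all genes tested in the Input, 21% were higher in IR and 23.9% lower. The part of these marker differences in the integrin results was not tested.

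**Figure D2:**
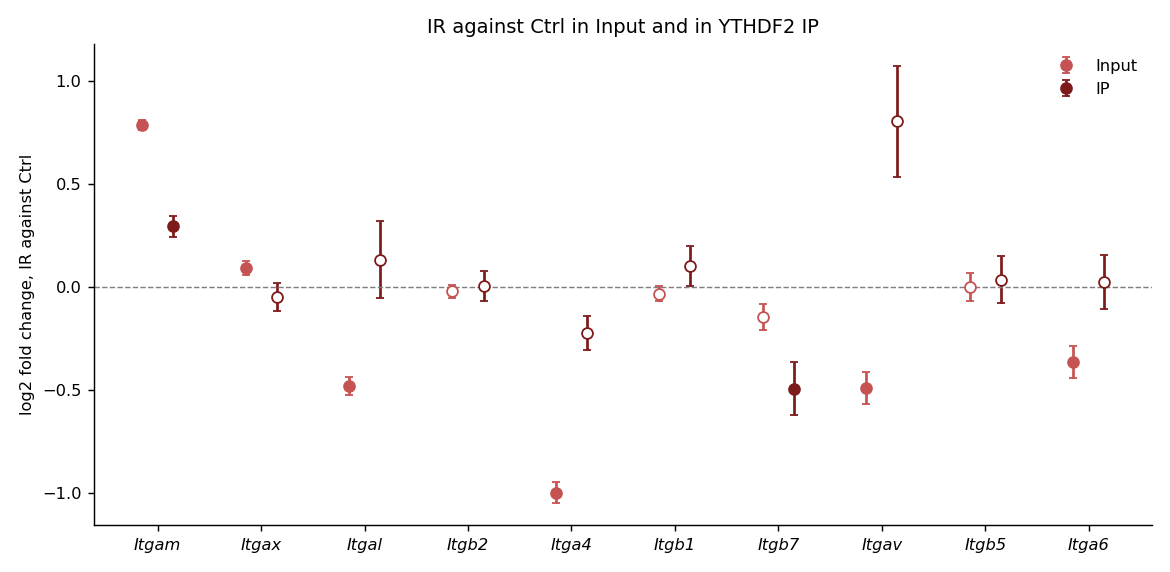
Log2 fold change of IR against Ctrl for each integrin gene (vertical axis) in Input (light) and in YTHDF2 IP (dark), with bars of 1 SE; filled points passed an adjusted p of 0.05. In Input, Itgam stands at 0.79 and Itga4 at -0.997; in IP, Itgam at 0.29 and Itgb7 at -0.49 are the members that passed.

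An integrin needs both chains, so the ratio of an alpha chain to its beta partner was taken within each library, which needs no scaling between libraries. The log2 ratio of Itgam over Itgb2 was 0.57, 0.66 and 0.71 in the Ctrl Input pools and 1.46, 1.45 and 1.45 in the IR Input pools. The ratio was 1.75-fold higher in IR. The log2 ratio of Itga4 over Itgb1 went the other way, from -1.75, -1.95 and -1.82 in Ctrl to -2.69, -2.90 and -2.82 in IR, a fold of 0.512.

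For Itgal over Itgb2 the log2 ratio had a mean of -2.71 ± 0.085 over the Ctrl pools and -3.17 ± 0.043 over the IR pools (SD, n = 3), and that of Itgav over Itgb5 was -0.24 ± 0.14 and -0.72 ± 0.22. In these 4 pairs no IR pool overlapped a Ctrl pool. The ratio of Itgax over Itgb2 did overlap, at -1.74 ± 0.13 and -1.62 ± 0.015. By the exact two-sided permutation test with n = 3 per group, p was 0.1 for the 4 pairs, which is the smallest value this design allows, and 0.3 for Itgax over Itgb2; adjusted over the 5 ratios they were 0.125 and 0.3, so none can pass 0.05.

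**Figure D3:**
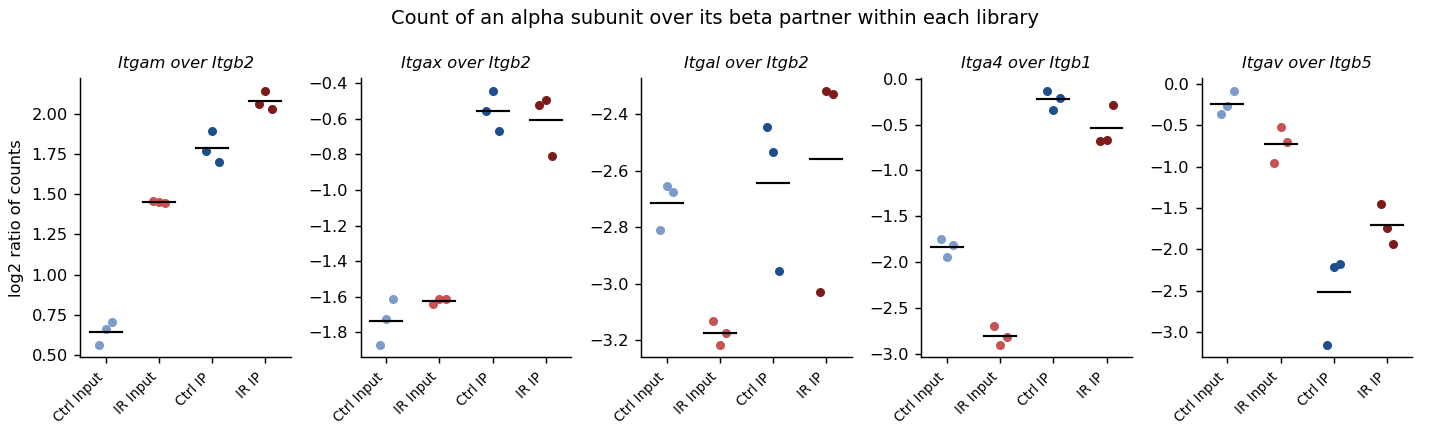
Log2 ratio of the count of an alpha gene to that of its beta partner within each library (vertical axis, scaled to each pair) for 5 pairs in Ctrl Input, IR Input, Ctrl IP and IR IP; points are libraries and bars are means. Itgam over Itgb2 moves from 0.65 to 1.45 between Ctrl and IR Input and Itga4 over Itgb1 from -1.84 to -2.80, with no overlap of pools.

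The second comparison asked which of these RNAs were recovered with YTHDF2 beyond their share of the Input. In Ctrl, Itga4, Itga6, Itgb5 and Itgb7 were enriched in the IP, and the 3 beta2 alpha chains, Itgb2, Itgb1 and Itgav were depleted. The edgeR quasi-likelihood test called 4 of 10 members higher in IP, where 34.1% of 17416 genes were, and 6 of 10 lower, where 34.6% were. In IR, 3 of 10 members were higher, where 32.1% of 18650 genes were, and 6 of 10 lower, where 30.5% were. The median log2 fold change of the members was -0.31 in Ctrl and -0.60 in IR, against 0.02 and 0.10 over all genes tested. No IP with a control antibody or without YTHDF2 was among the libraries, so binding to YTHDF2 and nonspecific recovery cannot be told apart. IP over Input is relative to the other RNAs of the libraries: with library sizes alone the median over all genes moved to -0.17 in Ctrl and 0.25 in IR, and the fold changes of the members moved with it.

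Of the beta2 genes, Itgb2 was the most depleted in both conditions. Its level in the IP was 203, 194 and 225 CPM in Ctrl and 193, 201 and 225 CPM in IR, against 578 to 638 CPM over the 6 Input libraries. No IP library came near an Input library, and the log2 fold change was -1.47 (SE 0.053, adjusted p = 6.46e-14) in Ctrl and -1.55 (SE 0.056, adjusted p = 1.38e-09) in IR. In Ctrl, 11.4% of the genes tested had a lower value.

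Itgal had a log2 fold change of -1.39 (SE 0.079, adjusted p = 4.3e-11) in Ctrl and -0.89 (SE 0.18, adjusted p = 0.00146) in IR. Its IR pools were uneven, with 23.7 CPM in IP replicate 1 against 40.3 and 44.8 CPM in replicates 2 and 3. Itgam was only mildly depleted in Ctrl, at 690, 720 and 731 CPM in the IP, with a log2 fold change of -0.33 (SE 0.035, adjusted p = 1.83e-07). In IR it was more depleted, at 804, 886 and 919 CPM in the IP against 1691 to 1736 CPM in the Input, with a log2 fold change of -0.93 (SE 0.046, adjusted p = 1.72e-08). Itgax followed at lower values, with -0.29 (SE 0.046, adjusted p = 2.39e-05) in Ctrl and -0.54 (SE 0.055, adjusted p = 7.5e-06) in IR.

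Itga4 was the member most enriched in the YTHDF2 IP. Its level in the IP was 93.3, 89.0 and 86.0 CPM in Ctrl, above all 3 Ctrl Input pools, and 72.7, 78.6 and 77.2 CPM in IR, more than every IR Input pool. The log2 fold change was 0.49 (SE 0.058, adjusted p = 7.84e-07) in Ctrl and 1.15 (SE 0.077, adjusted p = 2.19e-07) in IR. Its partner Itgb1 was depleted, with 102, 113 and 99.2 CPM in the Ctrl IP and 116, 125 and 94.0 CPM in the IR IP and log2 fold changes of -1.12 (SE 0.054, adjusted p = 3.66e-12) and -1.10 (SE 0.091, adjusted p = 1.35e-06). The 2 chains of VLA-4 thus stood on opposite sides of their Input level in both conditions.

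Itgb7 was at 31.7, 35.5 and 34.0 CPM in the Ctrl IP and 26.1, 23.0 and 22.3 CPM in the IR IP. Its log2 fold change of 0.24 (SE 0.084, adjusted p = 0.0187) in Ctrl was lost without Ctrl Input replicate 1 or 2, without a filter on low counts, with library sizes alone and with all 12 libraries in 1 fit, where it ranged from 0.05 to 0.22. In IR it was -0.22 (SE 0.11, adjusted p = 0.102). Itgb5 and Itga6 were mildly enriched in both conditions, with log2 fold changes of 0.38 (SE 0.086, adjusted p = 0.000761) and 0.31 (SE 0.099, adjusted p = 0.0179) for Itgb5 and of 0.41 (SE 0.091, adjusted p = 0.000674) and 0.69 (SE 0.12, adjusted p = 0.000569) for Itga6. The call of Itgb5 in IR was lost without IR Input replicate 2 (0.24) or 3 (0.31) and without a filter on low counts (0.17), and its call in Ctrl was lost with library sizes alone (0.20).

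Itgav was the member most depleted in Ctrl. Its IP level was 4.13, 8.30 and 7.22 CPM there and 13.6, 11.2 and 9.29 CPM in IR, in both conditions below every Input pool. The log2 fold change was -1.84 (SE 0.18, adjusted p = 7.08e-08) in Ctrl and -0.66 (SE 0.17, adjusted p = 0.00562) in IR. These values rest on 129 to 441 counts per IP library, the lowest of any member.

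GGACT matches occurred in depleted and in enriched members, and their part in the recovery with YTHDF2 was not tested. Itgb2, with 8 matches and a match 163 bases after its stop codon, and Itgav, with 14 matches and 1 at 93 bases, were depleted, while Itga6, with 3 matches and none within 200 bases of its stop codon, was enriched. Itga4 and Itgb5, both enriched, had 10 and 7 matches. Of the other depleted members, Itgal had 11 matches and Itgb1 2, each with 1 within 200 bases of the stop codon. Itgax had 4 and Itgam 3, with none within that distance. Itgb7, called enriched in Ctrl only, had 3 and also none there.

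**Figure D4:**
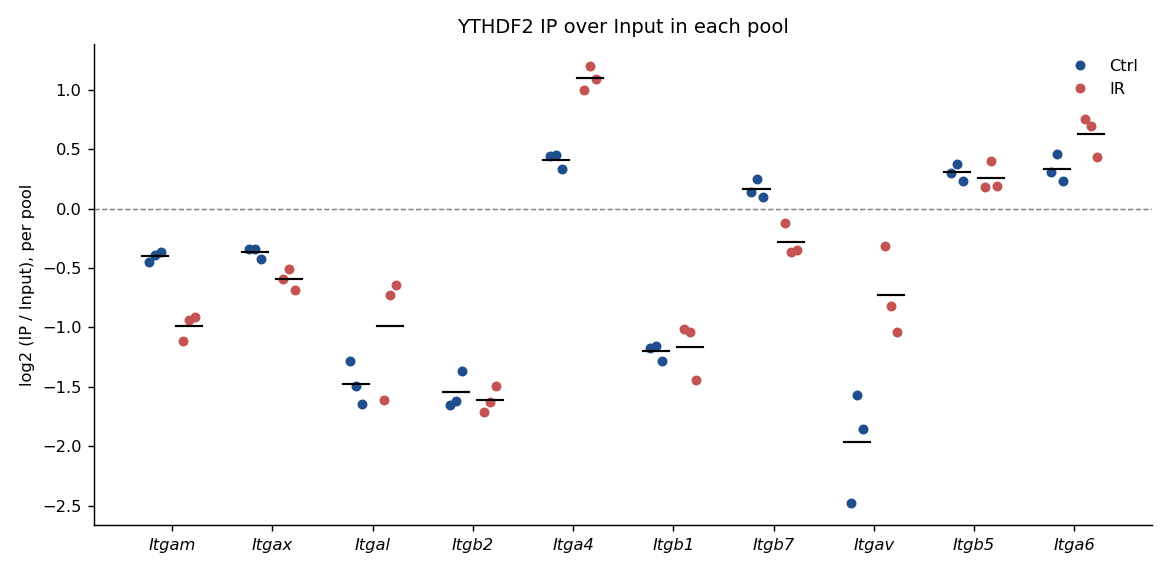
Log2 ratio of YTHDF2 IP over Input in each pool (vertical axis) for the 10 integrin genes in Ctrl and IR; points are pools, bars are means, and the dashed line marks equal shares in IP and Input. Itga4 rises from 0.41 to 1.10, Itgav from -1.97 to -0.72 and Itgam falls from -0.40 to -0.98 between Ctrl and IR.

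The third comparison asked whether recovery with YTHDF2 relative to the Input differed between IR and Ctrl. Itga4 and Itgav had a higher ratio of IP to Input in IR than in Ctrl, and Itgam, Itgax and Itgb7 a lower one. The last 2 calls depended on the processing. Of 19 alternatives, the call of Itgax was lost in 15 and its value turned in 1 more, to 0.08 with library sizes alone. That of Itgb7 was lost in 13. By the interaction term of the edgeR quasi-likelihood test over 20720 genes, 2 of 10 members were higher, where 6.28% of all genes tested were, and 3 of 10 lower, where 13.9% were. The median of the members was -0.00, against -0.08 over all genes tested. With library sizes alone that median over all genes moved to 0.22. The calls among the members were then 6 higher and 1 lower, where 2843 and 890 of the 20720 genes tested were.

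For Itga4 the log2 ratio of IP to Input was 0.44, 0.45 and 0.33 in the Ctrl pools and 0.998, 1.201 and 1.088 in the IR pools. The pools did not overlap, and the interaction was 0.69 (SE 0.093, adjusted p = 1.69e-05). Its Input level fell between these conditions while its IP level was 86.0 to 93.3 CPM in Ctrl and 72.7 to 78.6 CPM in IR. For Itgav the ratio was -2.48, -1.57 and -1.86 in the Ctrl pools and -0.32, -0.82 and -1.04 in the IR pools, again without overlap, with an interaction of 1.21 (SE 0.27, adjusted p = 0.00299).

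For Itgam the log2 ratio was -0.45, -0.39 and -0.37 in the Ctrl pools and -1.11, -0.93 and -0.91 in the IR pools. Every IR pool was below every Ctrl pool, and the interaction was -0.58 (SE 0.057, adjusted p = 2.9e-07). The RNA itself was higher in IR in both fractions, with log2 fold changes of 0.79 in Input and 0.29 in IP. The calls of Itgam, Itga4 and Itgav held in all 19 alternatives run, among them the fit with the pool as a block.

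The calls of Itgax and Itgb7 were less stable. The interaction was -0.23 (SE 0.071, adjusted p = 0.0282) for Itgax and -0.44 (SE 0.14, adjusted p = 0.0277) for Itgb7, and the pools of Ctrl and IR did not overlap for either. With the pool as a replicate block, both missed the threshold (adjusted p = 0.0535 and 0.056), which left 1 member called lower. Both calls were also lost without Ctrl Input replicate 1 or 2, without any 1 of the 3 IR Input replicates, without Ctrl IP replicate 2 or 3 and without IR IP replicate 3, and that of Itgax without Ctrl IP replicate 1. DESeq2 size factors, 10 counts in every library and protein-coding genes alone lost both as well. The call of Itgax was also lost with DESeq2 and without a filter, and that of Itgb7 with library sizes alone.

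Itgal missed the threshold with an interaction of 0.52 (SE 0.21, adjusted p = 0.0894) and Itga6 with 0.30 (SE 0.15, adjusted p = 0.188). Itgal passed in 6 of 19 alternatives, with 0.77 (adjusted p = 7.42e-05) without IR IP replicate 1, its uneven library, and with adjusted p from 0.00046 to 0.0434 with DESeq2, library sizes alone, no filter, 10 counts in every library and protein-coding genes alone. Itga6 passed in 3 of 19, without IR IP replicate 3 (0.45, adjusted p = 0.0217), with library sizes alone (0.61, adjusted p = 0.00861) and with 10 counts in every library (0.41, adjusted p = 0.0499). The beta chains Itgb2, Itgb1 and Itgb5 had interactions of -0.06 (SE 0.081), 0.04 (SE 0.11) and -0.05 (SE 0.13), with adjusted p from 0.669 to 0.85; with library sizes alone Itgb2 (0.25, adjusted p = 0.0228) and Itgb1 (0.36, adjusted p = 0.0381) passed as higher. The share of reads on no gene was higher in IR IP than in Ctrl IP, and its part in these differences was not tested.

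The IP libraries themselves were also compared between IR and Ctrl. The edgeR quasi-likelihood test called 1 of 10 higher, where 6.12% of 19255 genes were, and 1 of 10 lower, where 9.85% were. Itgam was higher, with a log2 fold change of 0.29 (SE 0.050, adjusted p = 0.000632), and its IR pools (804 to 919 CPM) lay above its Ctrl pools (690 to 731 CPM). Itgb7 was lower, with -0.49 (SE 0.13, adjusted p = 0.0145), and this call was lost without Ctrl IP replicate 2 (-0.45) or 3 (-0.49) and with library sizes alone (-0.29).

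Itgav stood just outside the threshold, with 0.80 (SE 0.27, adjusted p = 0.0538). It passed in 8 of 14 alternatives, among them DESeq2 (adjusted p = 0.0335) and the fits without Ctrl IP replicate 2 or IR IP replicate 3. Itga4 had -0.22 (SE 0.081, adjusted p = 0.0781). The other 6 members had log2 fold changes from -0.05 to 0.13, all with an adjusted p of 0.555 or more. These values share libraries with those of the other comparisons and are not independent of them.

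The genes around the integrins were described with 5 lists of 66 genes: 16 other integrin subunits, 20 activators and adaptors, 7 signalling kinases, 7 inhibitors and 16 ligands. In the Input, 11 of the 54 genes tested were higher in IR and 18 lower, where 21% and 23.9% of all genes tested were. Of the activators and adaptors, which link integrin tails to actin, 0 of 19 were higher and 8 lower, among them Vcl, which encodes vinculin (log2 fold change -0.43), and Tln1, which encodes talin (-0.41). Of the ligands, 4 of 10 were higher and 4 lower, and the largest changes were falls of Vcam1, the ligand of the alpha4 integrins (-1.36), and Fn1, which encodes fibronectin (-0.997).

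Of the kinases, 3 of 7 were higher and 3 lower, with Src at 0.41 and Lyn, another kinase of the Src family, at -0.22. Of the inhibitors, 3 of 7 were higher and 2 lower, with Rap1gap, which switches off Rap1, at 0.34 and Flna, which encodes filamin and competes with talin, at -0.34. Of the other subunits 1 of 11 was higher and 1 lower, Itga5 (0.12), the alpha chain of the fibronectin receptor, and Itga1 (-0.20), that of a collagen receptor. The median over the 54 genes was -0.03, against 0.01 over all genes tested.

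With YTHDF2, 17 of 53 list genes were higher in the IP in Ctrl and 25 lower, where 34.1% and 34.6% of all genes tested were. In IR, 12 of 57 were higher and 26 lower, where 32.1% and 30.5% of all genes tested were. Itga5 was enriched more than any member, with a log2 fold change of 2.51 in Ctrl and 1.96 in IR. Ptk2, which encodes FAK, was at 1.42 and 1.28, and Syk, which signals below beta2 integrins, at 1.33 and 1.04. Of the activators and adaptors, 4 of 19 were higher and 13 lower in Ctrl and 3 and 13 in IR, and the GTPase genes Rap1a (-2.06 and -2.18) and Rap1b (-2.31 and -2.12) were the most depleted of them.

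Of the inhibitors, 1 of 7 was higher and 3 lower in Ctrl and 0 and 5 in IR, with Itgb1bp1, whose product binds the beta1 tail, at -1.58 and -1.76 and the Rap1 inhibitor Rasa3 at -0.990 in Ctrl and -0.995 in IR. Of the ligands, 2 of 9 were higher and 5 lower in Ctrl and 1 and 4 of 11 in IR, with Spp1, which encodes osteopontin, at -2.44 and -2.53. Fn1 was at -1.68 in Ctrl, and Thbs1, which encodes thrombospondin-1, at -0.65 in IR. Of the other subunits, 6 of 11 were higher and 3 lower in Ctrl and 5 and 2 of 13 in IR, with Itgae, the alpha chain that pairs with Itgb7, at -1.21 in Ctrl and Itga3, a laminin receptor chain, at 1.92 in IR. Of the kinases, 4 of 7 were higher and 1 lower in Ctrl and 3 and 2 in IR.

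For the interaction, 9 of 58 list genes had a higher ratio of IP to Input in IR and 11 a lower one, where 6.28% and 13.9% of all genes tested did. The largest were Fn1 at 1.36 (adjusted p = 1.86e-05) and Thbs1 at 0.87 (adjusted p = 6.9e-09) among the ligands, of which 3 of 11 were higher and 1 lower, and Fyb, an adaptor that recruits talin, at -0.85 (adjusted p = 3.48e-09) and Vcl at 0.77 (adjusted p = 0.00252) among the activators, of which 5 of 19 were higher and 3 lower. Of the kinases, 0 of 7 were higher and 4 lower, among them Fgr (-0.34), which acts below beta2 integrins. Of the other subunits 0 of 14 were higher and 2 lower, Itga2b (-0.53) and Itga5 (-0.53), and of the inhibitors Flna was higher (0.22) and Sipa1, which inactivates Rap1, lower (-0.27). With library sizes alone the counts over the lists were 16 higher and 3 lower, where 2843 and 890 of all 20720 genes tested were.

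In the IP libraries, 8 of 55 list genes were higher in IR and 9 lower, where 6.12% and 9.85% of all genes tested were. Of the other subunits, 2 of 12 were higher and 3 lower, among the latter Itga1 (-0.38) and Itga2b (-0.37). Fyb was at -0.70 and Lims1, an adaptor of the integrin-linked kinase, at 0.56, in a list with 2 of 19 higher and 3 lower. Of the kinases, 1 of 7 was higher, Src (0.95), and 2 were lower. Of the inhibitors, Rasa3 (0.35) was higher and Sipa1 (-0.29) lower, and of the ligands 2 of 10 were higher, Lama5 (0.65) and Thbs1 (0.22), and 0 lower.

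Over the 12 libraries, the 5 protein-coding genes whose log2 CPM ran closest to that of Itgam were Fuca1 (Pearson r 0.985), Ppt1 (0.983), Ccdc122 (0.979), Ypel5 (0.976) and Pfdn5 (0.976), of 10576 genes compared. Fuca1 stood at 112 CPM in Ctrl Input and 159 CPM in IR Input, and at 93.0 and 109 CPM in the IP. For Itgb1 the closest were Dnajc19 (0.995), Ssr3 (0.995), Stx7 (0.995), Psmb2 (0.994) and Ilk (0.994). The 12 libraries fall into 4 groups of 3, so these values mostly reflect the same order of the group means.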

How the data were processed

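RNA of CD11b+ cells was sequenced as Input and YTHDF2 IP. The authors trimmed reads (Trimmomatic 0.39), aligned them by HISAT against mm10 and GENCODE M19, and deposited raw HTSeq counts per gene, which are whole numbers without scaling. Their lines for uncounted reads were left out of library sizes. The counting mode and strand option are not given in the sources used here. The labels name an mRNA isolation before the RIP and the methods a total RNA library, which cannot be settled from the counts.

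Symbols came from GENCODE M21 (97.8% of identifiers matched with their version). A gene was tested where 3 or more libraries of a comparison held 10 or more counts. TMM scaling (edgeR 4.0.16, R 4.3.3) was followed by glmQLFTest, and p-values were adjusted over all tested genes (Benjamini-Hochberg, 0.05). SE is the absolute log2 fold change over the square root of F. CPM values use TMM factors computed over the 12 libraries together. Log2 values per pool used a prior count of 2. Ratios within libraries were compared by an exact two-sided permutation test (SciPy 1.17.1). The tests were also run on simulated counts in which few genes changed, with rises and falls in equal number. That setting differs from IP against Input here, where many genes changed, so it does not check the scaling. Duplicate reads cannot be told from separate molecules, so depth speaks to counting error only.

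The methods state that Input was set aside from the lysate used for the IP. IP and Input of the same number were therefore taken as 1 pool, though the sources do not state that the numbers follow the lysates. The correlations of their deviations from the group means were -0.0333, 0.0219 and -0.0151 in Ctrl and -0.0072, 0.0394 and -0.003 in IR. Ctrl and IR pools of the same number held different mice. The fit with a block was an alternative, as were DESeq2 1.42.0 and its size factors, library sizes alone, other filters, all 12 libraries in 1 fit, protein-coding genes alone, and leaving out each library.

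The members and gene lists were chosen with earlier results of these data known. All 10 members are named. Per list, at most 2 genes are named, those with the largest log2 fold change among the called genes that averaged 100 counts or more, and for Itgam and Itgb1 the 5 genes most alike. Not every gene that this rule picks is reported here.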

Additional observations from a re-analysis of the deposited data

Results flagged for a closer look

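For 5 of the 10 integrin genes the effect of YTHDF2 IP against Input differed between IR and Ctrl by the test of the difference itself, the interaction term of edgeR's quasi-likelihood test, by which 6.28% of all genes tested were higher and 13.9% lower. On the log2 scale the difference was -0.58 for Itgam, -0.23 for Itgax, 0.69 for Itga4, -0.44 for Itgb7 and 1.21 for Itgav. With the pool as a replicate block, Itgax (adjusted p = 0.0535) and Itgb7 (adjusted p = 0.056) missed the threshold. Over 19 alternatives the call of Itgax was lost in 15 and its sign turned in 1 more, and that of Itgb7 was lost in 13, while those of Itgam, Itga4 and Itgav were kept. For Itgb7 the log2 ratios of IP to Input of the pools lay on opposite sides of 0, at 0.10 to 0.25 in Ctrl and -0.36 to -0.13 in IR. The position of 0 depends on the scaling. In edgeR's test of IP against Input, Itgb7 did not pass in IR (adjusted p = 0.102). Its call in Ctrl was lost in 5 of 14 alternatives. Groups of 3 libraries are too small for a test of single libraries that stand apart.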

How the results depend on the processing

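Of the 390 log2 fold changes of single members under alternatives that kept all libraries, 331 kept their direction and side of the threshold, and of the 360 with 1 library left out, 312 did. All 35 alternative values of the 5 ratios kept their direction. For the pairs whose pools did not overlap, leaving out 1 library could not have turned it. TMM takes the bulk of genes as constant and cannot show a shift of binding that most genes share, and library sizes alone moved the most counts. With 3 pools per group the exact test of the ratios cannot pass 0.05, and Itgav in the IP rests on few counts.

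With library sizes alone, the members called were 2 higher for IP against Input in Ctrl, 6 higher and 1 lower for the change of IP over Input with IR, 1 higher for IR against Ctrl in Input, and 4 higher and 0 lower for IR against Ctrl in IP (against 4, 2, 3, 2, 1 and 1 with TMM). Over all genes, this setting called 5053 of 17416 higher for IP against Input in Ctrl. For the change it called 2843 higher and 890 lower of 20720. For IR against Ctrl it called 3320 of 16914 higher in Input, and 2638 higher and 839 lower of 19255 in IP. For the change of IP over Input, a minimum of 10 counts in every library gave 4 higher and 1 lower, and DESeq2 size factors and protein-coding genes alone gave 1 lower. Over all genes, that minimum called 1609 higher and 2170 lower of 13527. DESeq2 size factors called 2374 of 20720 lower, and protein-coding genes alone 2092 of 14494. The replicate block, which pairs IP and Input of a pool, also gave 1 lower there and changed no other count of members. Over all genes, it called 2765 of 20720 lower for that change. For IR against Ctrl in IP, 2 members were higher with DESeq2, without a filter, with 10 counts in every library, with protein-coding genes alone and with all 12 libraries in 1 fit, which also gave 2 lower. Over all genes, DESeq2 called 1761 of 19255 higher, no filter 1242 of 38029 and 10 counts in every library 1425 of 14441. Protein-coding genes alone called 1225 of 13997 higher. The fit of all 12 libraries called 2121 higher and 2920 lower of 19255. With 1 library left out, the members called lower for the change of IP over Input ranged from 1 to 3, those higher in IR Input from 1 to 2, and those higher and lower in IR IP from 1 to 2 and from 0 to 1. Over all genes, these fits called 2108 to 3142 lower for the change and 3063 to 3365 higher in IR Input. In IR IP they called 715 to 1056 higher and 1325 to 1850 lower.

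Some signs turned, all but 1 of them of values that had not passed the test. The exception was Itgax for the change of IP over Input, which library sizes alone moved from -0.23 to 0.082. The same setting gave 0.25 for Itgb2 (adjusted p = 0.0228, now past the threshold) and 0.26 for Itgb5, 10 counts in every library gave 0.047 for Itgb2 and 0.060 for Itgb5, protein-coding genes alone gave 0.016 and 0.027 for the same genes, and Itgb5 was at 0.0080 with DESeq2 size factors and 0.0074 with DESeq2. With 1 library left out, Itgb2 ranged from -0.10 to 0.062, Itgb1 from -0.021 to 0.22 and Itgb5 from -0.11 to 0.065. In Input, all 12 libraries in 1 fit gave 0.028 for Itgb2, 0.018 for Itgb1 and 0.048 for Itgb5, and Itgb5 was at 0.0026 with DESeq2 size factors, 0.0024 with DESeq2 and 0.0083 with protein-coding genes alone. With 1 library left out, Itgb2 ranged there from -0.060 to 0.021, Itgb1 from -0.060 to 0.0074 and Itgb5 from -0.049 to 0.057. In IP, Itgax was at 0.16 with library sizes alone and 0.0055 with 10 counts in every library, Itgb2 at -0.029 and Itga6 at -0.0094 without a filter, and Itgb2 at -0.0032 with all 12 libraries in 1 fit. With 1 library left out, Itgal ranged there from -0.039 to 0.38, Itgb2 from -0.054 to 0.065, Itgb5 from -0.027 to 0.090 and Itga6 from -0.024 to 0.12. The cause of these turns was not tested.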
